A study of Homo sapiens with 12 samples.

Results

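VA-ES-BJ is an established human cell line that the labels give as epithelioid sarcoma, and its expression without taurolidine is described here against that of A-204, labelled rhabdomyosarcoma, and SK-LMS-1, labelled leiomyosarcoma. The series holds 12 arrays, and the 6 arrays without taurolidine were taken, of which 2 are of VA-ES-BJ, 2 of A-204 and 2 of SK-LMS-1. In each line 1 of these arrays is of untreated cells and 1 is of cells given TRAIL at 50 ng/ml for 6 h. TRAIL is a protein of the tumour necrosis factor family that binds death receptors. The other 6 arrays, with taurolidine at 250 µmol/l for 6 h alone or with TRAIL, were kept apart and used only to look at the same differences again. All 3 lines grew in the same serum-containing medium, and each tumour type stands as 1 cell line, so that a difference between tumour types cannot be told apart from one between single lines.

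Epithelioid sarcoma is a soft tissue tumour whose cells carry keratins together with vimentin, a pairing of epithelial and mesenchymal intermediate filaments. It typically lacks SMARCB1, a core subunit of the SWI/SNF complexes, which move nucleosomes and open enhancers, and which act against the Polycomb complexes that silence developmental genes. Smooth muscle tumours are known by contractile genes such as ACTA2 and TAGLN, and skeletal muscle tumours by MYOD1, MYOG and DES.

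Expression was measured as MAS5 signal on an Affymetrix array of 54675 probe sets, on a linear scale that was set to a common trimmed mean on each array. The median signal of the 6 arrays lay between 128.6 and 149.6. The median of the whole table, 136.5, served as a working floor, because no detection calls were at hand, and a signal under it is called dim here. A gene was tested if a probe set of it exceeded that floor on at least 2 of the 6 arrays, and 13927 genes were. A gene above the floor in VA-ES-BJ alone passed only because it was high there, so that the share of a list called higher is partly set by this filter. A gene dim on both VA-ES-BJ arrays passed only through the other lines, so that the share called lower is partly set by it too. A difference is on the log2(signal + 11.8) scale, which understates the fold change of dim genes, and is VA-ES-BJ minus the other line with its standard error (limma, n = 2 arrays a line). A gene was called higher or lower if it differed from both lines the same way, by at least 4-fold (2 on the log2 scale) from each, with an adjusted p under 0.05 (limma, the larger p of both comparisons, Benjamini-Hochberg over all genes tested). The nearer line is the one with the smaller difference, and where a bracket after a gene's signals holds a single difference, it is that one. Of each pair of signals the first is from untreated cells and the second from the TRAIL array. The labels do not say whether arrays of a line came from separate cultures, so that the p-values reflect the spread of these arrays alone, which may be technical, and precision is limited by their small number. The arrays measured RNA of whole cultures, where fewer cells of a type and less RNA per cell cannot be told apart.

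By this rule 387 genes were higher in VA-ES-BJ than in both other lines, 2.78% of the genes tested, and 265 were lower, 1.90%. The count called in each list below is to be read against these shares. The median difference from the nearer line was 3.13 for the genes called higher and -3.17 for those called lower, against -0.03 over all genes tested. Signal above the floor on both VA-ES-BJ arrays and on none of the 4 others was found for 319 genes (2.29%), of which 182 were called higher. The reverse, dim on both VA-ES-BJ arrays and above the floor on all 4 others, was found for 290 genes (2.08%), of which 161 were called lower. At the edge of the 4-fold limit, GRB7 and SOCS1 lay just inside on the higher side, at 2.0035 and 2.0038, and BTN2A2 and NFKBIA just outside, at 1.9959 and 1.9976. On the lower side SCARF2 and CYB5R2 lay just inside, at -2.0005 and -2.0007, and TSLP and SCRG1 just outside, at -1.9952 and -1.9988. Leaving out the untreated array of VA-ES-BJ left 162 genes called higher and 212 lower, and leaving out its TRAIL array left 91 and 129. Such a fit has 1 array of VA-ES-BJ and assumes that it varies like the other lines.

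**Figure D1:**
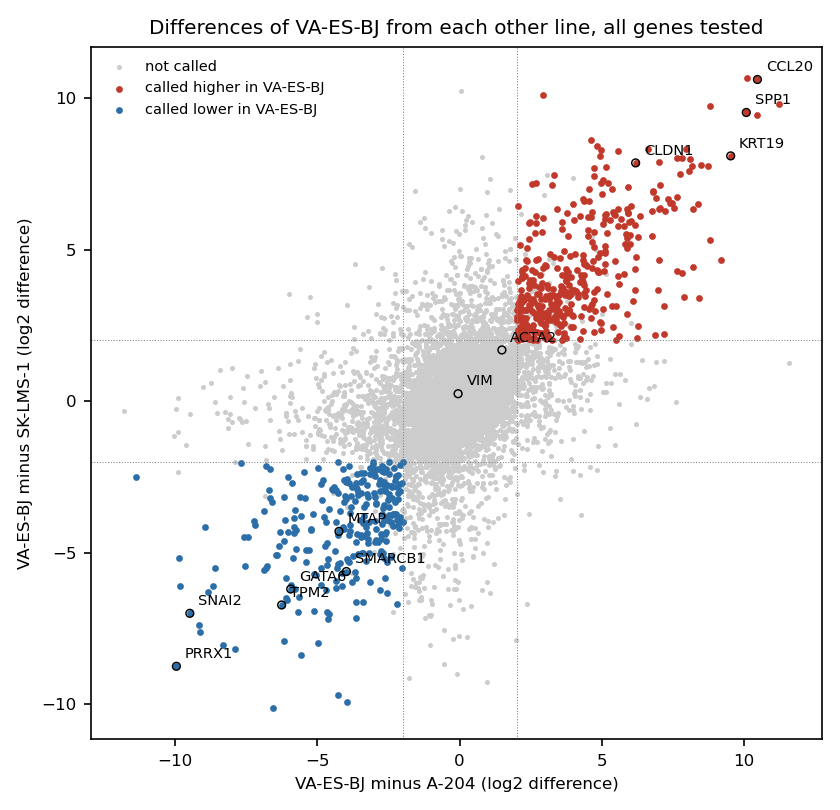
Difference of VA-ES-BJ from A-204 (horizontal axis) and from SK-LMS-1 (vertical axis) on the log2(signal + 11.8) scale, with 1 point for each of the 13927 genes tested and dotted lines at 4-fold. The 387 genes called higher (red) lie in the upper right corner with CCL20, SPP1, KRT19 and CLDN1, the 265 called lower (blue) lie in the lower left with PRRX1, SNAI2, GATA6 and TPM2, and VIM lies near 0 on both axes.

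The marker genes of the line followed its label in keratin and SMARCB1. KRT19, a keratin of simple epithelia, had a signal of 16189 and 18439 in VA-ES-BJ, 27.9 and 89.3 in SK-LMS-1 and 9.33 and 14.3 in A-204. Both VA-ES-BJ arrays were bright and all 4 others were dim, and the geometric mean of VA-ES-BJ was 127 times the floor. The differences were 9.53 ± 0.34 against A-204 and 8.09 ± 0.34 against SK-LMS-1 (adjusted p = 0.00326). SMARCB1 had a signal of 152 and 21.9 in VA-ES-BJ, 3530.1 and 3795 in SK-LMS-1 and 1235 and 1090.2 in A-204. Its 2 VA-ES-BJ values lay below all 4 others but differed from each other, with 1 above the floor. An RNA signal does not tell whether the SMARCB1 gene or protein is intact in A-204 or SK-LMS-1. The differences were -3.98 ± 0.68 against A-204 and -5.63 ± 0.68 against SK-LMS-1 (adjusted p = 0.0371). A second tested probe set of SMARCB1 read 156 and 59.9 in VA-ES-BJ, 77.1 and 94.1 in SK-LMS-1 and 184 and 110.3 in A-204, near the floor in every line and with overlapping values. With the mean of both probe sets in place of the brighter one the SMARCB1 difference was -2.24 and its adjusted p 0.0739. KRT19 lost its call without the TRAIL array of VA-ES-BJ (adjusted p of up to 0.0516). SMARCB1 lost its call without the TRAIL array of VA-ES-BJ or either array of A-204 or either array of SK-LMS-1 (adjusted p of up to 0.173). SMARCB1 was not called with no constant or no filter either (-4.33 to -3.98, adjusted p of up to 0.0869).

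ACTA2, the smooth muscle actin, had a signal of 4979.9 and 4737 in VA-ES-BJ, 1686 and 1335 in SK-LMS-1 and 1667 and 1786 in A-204. VA-ES-BJ was above the other lines on both arrays, SK-LMS-1 included, which is the line of the smooth muscle tumour. The differences were 1.49 ± 0.15 against A-204 and 1.69 ± 0.15 against SK-LMS-1 (adjusted p = 0.0134), which is under the 4-fold limit, and the gene was not called. VIM, vimentin, was bright in every line, with 36708 and 59815 in VA-ES-BJ, 38778 and 40469 in SK-LMS-1 and 48384 and 48841 in A-204 and no call.

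Most other genes of its complex were not low with SMARCB1. Of 29 SWI/SNF subunits tested, 0 were called higher and 2 lower (6.90%, against 1.90% of all genes tested), SMARCB1 and BCL11A. The median difference from the nearer line was 0.02. BCL11A, a zinc finger protein that joins SWI/SNF complexes, had a signal of 27.3 and 5.48 in VA-ES-BJ, 387 and 407 in SK-LMS-1 and 689 and 633 in A-204 (-3.98, adjusted p = 0.0109). The ATPase gene SMARCA4 read 8991 and 10082 in VA-ES-BJ, 7692 and 6717 in SK-LMS-1 and 6915 and 6344 in A-204, and the scaffold gene SMARCC1 4775 and 4883 in VA-ES-BJ, 4202 and 4515 in SK-LMS-1 and 4999 and 5487 in A-204, with differences from the nearer line of 0.40 and -0.12 and no call. BCL11B, the relative of BCL11A, was dim in VA-ES-BJ and SK-LMS-1 and was not called (-1.53, adjusted p = 0.173). PHF10, a subunit of the PBAF form of the complex, read 6997 and 8375 in VA-ES-BJ, 3163 and 3053 in SK-LMS-1 and 2449.5 and 2742 in A-204, a difference of 1.30, adjusted p = 0.0131 that is under 4-fold. DPF2, another subunit, went the other way. It read 1253.5 and 1635.5 in VA-ES-BJ, 2932.8 and 3191.6 in SK-LMS-1 and 3262.7 and 3478.4 in A-204 (-1.09, adjusted p = 0.0178), under 4-fold too. Of the 29 subunits, 12 lay above both other lines, 8 below both and 9 between. None of 17 Polycomb genes was called. Among them EZH2, the histone methyltransferase, read 6114 and 6493 in VA-ES-BJ, 3833 and 2810.5 in SK-LMS-1 and 4052 and 3430.2 in A-204 (0.76, adjusted p = 0.0669). The values of CBX7, EED and RING1, other Polycomb subunits, differed from the nearer line by -0.49, -0.43 and -0.38 and were not called either. BCL11A lost its call without the TRAIL array of A-204 or the TRAIL array of SK-LMS-1 (adjusted p of up to 0.0542).

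Of 14 genes linked to SMARCB1 control, 1 was called higher and 0 lower. It was CDKN1A, the cyclin-dependent kinase inhibitor p21, with a signal of 14640 and 16525 in VA-ES-BJ, 1966 and 1889 in SK-LMS-1 and 3399 and 3476 in A-204. All values of VA-ES-BJ lay far above the others (2.17, adjusted p = 0.00451). CCND1, cyclin D1, went the other way without reaching 4-fold, with 4488 and 4279 in VA-ES-BJ, 16613 and 16179 in SK-LMS-1 and 14980 and 15392 in A-204 (-1.79, adjusted p = 0.00505). MDM2, the ubiquitin ligase, read 9339.5 and 8216 in VA-ES-BJ, 982 and 1192 in SK-LMS-1 and 2020.3 and 2508 in A-204 and missed the limit at 1.95, adjusted p = 0.0106. CDKN1A lost its call without the TRAIL array of VA-ES-BJ (adjusted p of up to 0.0557).

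Signals at the chromosome 9 locus of the CDKN2A inhibitors were low in VA-ES-BJ, and so was that of a neighbouring gene, MTAP. MTAP encodes the methylthioadenosine phosphorylase of the methionine salvage pathway. MTAP had a signal of 29.9 and 68.97 in VA-ES-BJ, 1133 and 1133 in SK-LMS-1 and 1154 and 1016 in A-204. Both VA-ES-BJ arrays were dim and all 4 others were above 1000, the geometric mean of A-204 being 7.93 times the floor. The differences were -4.24 ± 0.33 against A-204 and -4.30 ± 0.33 against SK-LMS-1 (adjusted p = 0.00830), and 3 of 4 other tested probe sets of the gene differed by 4-fold the same way. The MTAP call was not repeated on the arrays with taurolidine. CDKN2A, which encodes p16 and p14ARF, read 38.5 and 281 in VA-ES-BJ, 6063 and 6404 in SK-LMS-1 and 1941 and 1430 in A-204. It was lower on both arrays than in any other but spread widely between them, and was not called (adjusted p = 0.0620). A second tested probe set of CDKN2A read 3.40 and 32.4 in VA-ES-BJ, 1556 and 1509 in SK-LMS-1 and 525 and 535 in A-204 and differed by over 4-fold the same way. CDKN2A was called lower on the arrays with taurolidine (-3.99, adjusted p = 0.00534), and without taurolidine it was called in 7 of 19 alternatives, among them a stricter filter, a constant of 50 and the mean of probe sets. CDKN2B, which encodes p15, read 2.48 and 18.8 in VA-ES-BJ, 401 and 406 in SK-LMS-1 and 85.2 and 152 in A-204, was dim in A-204 on 1 array too, and was called (-2.59, adjusted p = 0.0173). These 3 genes are neighbours in the RefSeq gene order among the genes tested, and whether their low signals have a common cause was not tested. Of the 16 genes tested next to MTAP, 8 on each side, 1 was called lower, CDKN2B, and 0 higher. KLHL9 on one side and CAAP1 and PLAA on the other were bright in VA-ES-BJ, while HACD4, IFNA17, IFT74 and MOB3B were lowest on both of its arrays, at -0.96, -0.72, -0.57 and -0.96, with no call. Around SMARCB1 on chromosome 22, 0 of 16 neighbours were called in either direction. SPECC1L had the smallest adjusted p among them (0.0106), at a difference of -1.16, and DRICH1, ZNF70 and MIF were lowest on both VA-ES-BJ arrays too, at -0.60, -0.52 and -0.32. CDKN2B lost its call without either array of VA-ES-BJ or either array of A-204 (adjusted p of up to 0.104). CDKN2B was not called with no constant, a constant of 50 or no filter either (-4.06 to -1.46, adjusted p of up to 0.0608).

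**Figure D2:**
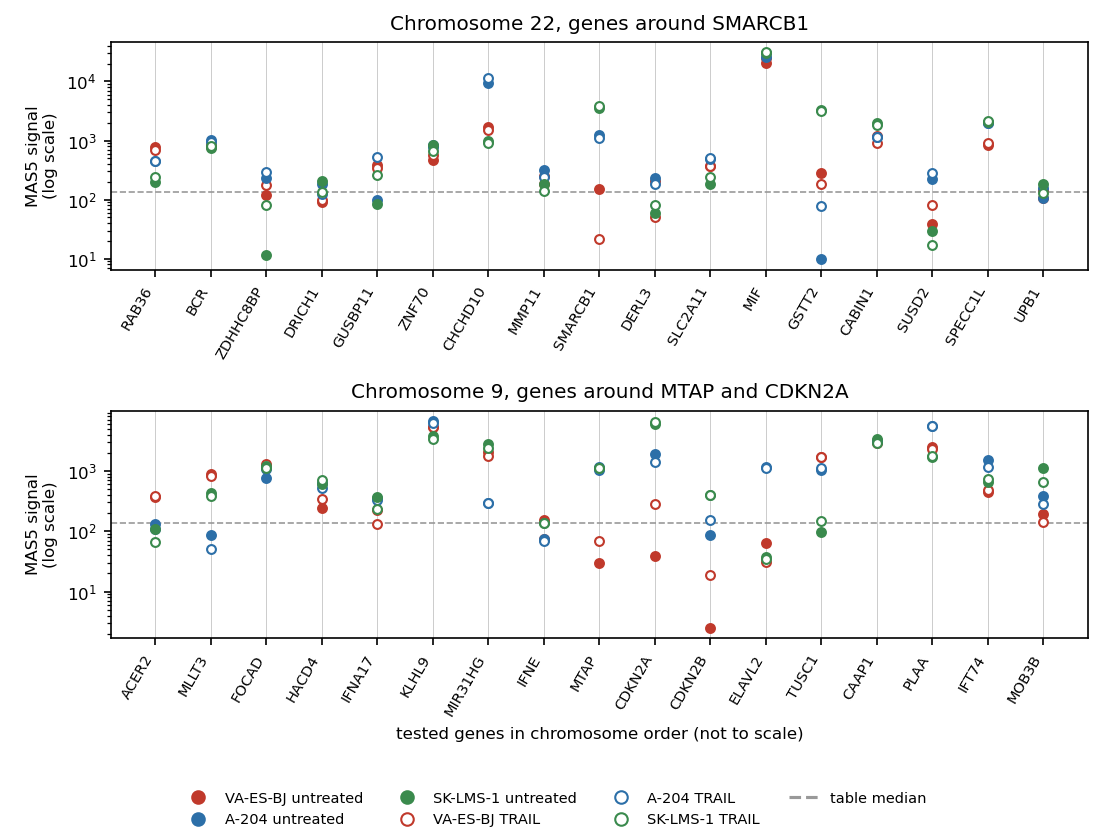
MAS5 signal (vertical axis, log scale) on the 6 arrays for the tested genes around SMARCB1 (upper panel) and MTAP (lower panel), in chromosome order and not to scale, with filled points for untreated and open points for TRAIL arrays and a dashed line at the floor of 136.5. In VA-ES-BJ (red) the genes MTAP, CDKN2A and CDKN2B lie below both other lines, while SMARCB1 is low between neighbours of which 0 were called, although SPECC1L, DRICH1, ZNF70 and MIF are also lowest on both VA-ES-BJ arrays.

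Keratins differed among themselves. Of 20 keratin genes listed, 14 were on the array and 9 were tested, and KRT19 and KRT80 passed the filter through VA-ES-BJ alone and so had to be higher there. Of the 9, 3 were called higher (33.3%, against 2.78% of all genes tested) and 0 lower, with a median difference of 0.38. KRT8, a keratin of simple epithelia, had a signal of 16153 and 17987 in VA-ES-BJ, 339 and 375 in SK-LMS-1 and 2771 and 2618 in A-204 (2.66, adjusted p = 0.00358). It was brightest on both VA-ES-BJ arrays, with A-204 between. KRT80 had a signal of 463 and 567 in VA-ES-BJ, 19.05 and 15.8 in SK-LMS-1 and 56.8 and 11.3 in A-204 (3.72, adjusted p = 0.0237) and was above the floor in VA-ES-BJ alone. KRT18, the partner of KRT8, was bright in every line, at 18904 and 26930 in VA-ES-BJ, 11164 and 9599.6 in SK-LMS-1 and 9212 and 9109 in A-204, and was not called (1.12, adjusted p = 0.0483). KRT14 and KRT5, keratins of basal epithelium, were bright in A-204 alone and dim in VA-ES-BJ. KRT14 read 4.10 and 7.001 in VA-ES-BJ, 8.96 and 8.75 in SK-LMS-1 and 15895 and 18605 in A-204, and KRT5 66.4 and 34.02 in VA-ES-BJ, 61.6 and 93.97 in SK-LMS-1 and 12279 and 13544 in A-204. KRT10, KRT7 and KRT15 differed from the nearer line by 0.38, -0.19 and -0.21 and were not called. KRT8 lost its call without the TRAIL array of VA-ES-BJ (adjusted p of up to 0.0547). KRT80 lost its call without either array of VA-ES-BJ or either array of SK-LMS-1 (adjusted p of up to 0.139). KRT80 was not called with no filter either (3.72, adjusted p = 0.0622).

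Junction genes were split. Of 21 epithelial junction and surface genes tested, 2 were called higher, CLDN1 and OCLN, and 0 lower, with a median difference of 0.18. The list does not hold every junction gene, and claudin genes called higher outside it are not counted here. CLDN1, claudin-1 of the tight junction, had a signal of 28540 and 40022 in VA-ES-BJ, 175 and 102 in SK-LMS-1 and 429 and 479 in A-204. Both VA-ES-BJ values were far above the 4 others, with differences of 6.18 ± 0.34 against A-204 and 7.86 ± 0.34 against SK-LMS-1 (adjusted p = 0.00457), and its second probe set differed by 4-fold the same way. OCLN, occludin of the same junction, read 2693 and 2477 in VA-ES-BJ, 146 and 132 in SK-LMS-1 and 577 and 529 in A-204 (2.20, adjusted p = 0.00358). CDH1, E-cadherin of the adherens junction, was dim in VA-ES-BJ, with 42.1 and 8.27 in VA-ES-BJ, 44.7 and 10.5 in SK-LMS-1 and 180.5 and 169 in A-204. EPCAM was bright in A-204 alone, with 130.5 and 138 in VA-ES-BJ, 13.8 and 37.95 in SK-LMS-1 and 1915 and 1920.5 in A-204, and so was the desmosome gene DSP, with 46.7 and 25.7 in VA-ES-BJ, 36.2 and 11.6 in SK-LMS-1 and 3862 and 3055 in A-204. PKP1, plakophilin-1 of the desmosome, was near or under the floor in every line and was not called (-1.34, adjusted p = 0.412). SPINT2, an inhibitor of membrane serine proteases, was highest in VA-ES-BJ, with 6498 and 7724 in VA-ES-BJ, 119 and 18.4 in SK-LMS-1 and 868 and 942 in A-204, and was not called (2.95, adjusted p = 0.0726). SPINT2 was called with a constant of 50, a stricter filter, no agent term, all 12 arrays or an intensity trend. CDH2, N-cadherin, was dim in VA-ES-BJ as well, with 112 and 62.9 in VA-ES-BJ, 10137 and 9715 in SK-LMS-1 and 4.33 and 10.2 in A-204. E-cadherin and N-cadherin were thus both under the floor in VA-ES-BJ, which does not hold for every cadherin gene (CDH10 is given below). CLDN1 and OCLN lost their calls without the TRAIL array of VA-ES-BJ (adjusted p of up to 0.0571).

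Epithelial transcription and splicing factors gave no call on the higher side. Of 7 tested, 0 were called higher and 1 lower. KLF5, a factor of basal epithelium, was dim in VA-ES-BJ, with 73.5 and 47.8 in VA-ES-BJ, 548 and 498 in SK-LMS-1 and 1614 and 1583 in A-204 (-2.91, adjusted p = 0.00492), but with the mean of its probe sets the difference was -1.79 and it was not called. ELF3, an ETS factor of epithelia, was brightest in VA-ES-BJ, with 2045 and 1837 in VA-ES-BJ, 191 and 120.2 in SK-LMS-1 and 50.02 and 326 in A-204. Its A-204 values were far apart, and it was not called (adjusted p = 0.0761). Its 2 other tested probe sets differed by 4-fold the same way. ELF3 was called with a constant of 50, a stricter filter, the mean of probe sets, no agent term, all 12 arrays or an intensity trend. GRHL1, a grainyhead factor of epithelia, was highest in VA-ES-BJ, with 281 and 238 in VA-ES-BJ, 98.3 and 128 in SK-LMS-1 and 119.5 and 93.2 in A-204, at 1.12, adjusted p = 0.0454, under 4-fold. GRHL2 and ESRP1 were on the array and dim on all 6 arrays, at no more than 101 and 74.95.

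Mesenchymal genes were the list with the largest share called lower. Of 21 tested, 0 were called higher and 10 lower (47.6%, against 1.90% of all genes tested), and the median difference from the nearer line was -2.34. Signals on both VA-ES-BJ arrays were dim for 12 of the 21. These 12 passed the filter only through the other lines, so that the share called lower is partly set by the filter. PRRX1, a homeobox factor of limb and head mesenchyme, had a signal of 22.8 and 7.58 in VA-ES-BJ, 11449 and 10877 in SK-LMS-1 and 25646 and 25559 in A-204. It was dim on both VA-ES-BJ arrays and above 10000 on the 4 others, where the geometric mean of SK-LMS-1 was 81.7 times the floor, with differences of -9.95 ± 0.26 against A-204 and -8.75 ± 0.26 against SK-LMS-1 (adjusted p = 0.00235).

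SNAI2, the zinc finger repressor Slug, had a signal of 12.2 and 20.02 in VA-ES-BJ, 3552 and 3518 in SK-LMS-1 and 20100 and 19279 in A-204 (-7.01, adjusted p = 0.00207). TWIST1, a helix-loop-helix factor of mesenchyme, read 51.4 and 31.8 in VA-ES-BJ, 3376 and 2989.6 in SK-LMS-1 and 1102 and 1004 in A-204 (-4.34, adjusted p = 0.00264). Its relative TWIST2 read 115 and 88.6 in VA-ES-BJ, 4831 and 4769 in SK-LMS-1 and 2826 and 2820.3 in A-204 (-4.65, adjusted p = 0.00235). All 3 factors were dim on both VA-ES-BJ arrays and above 1000 on the 4 others. PDGFRA, a receptor of platelet-derived growth factor, had a signal of 6.23 and 51.9 in VA-ES-BJ, 5626 and 5837 in SK-LMS-1 and 18761 and 20227 in A-204 (-7.41, adjusted p = 0.00735). S100A4, a calcium-binding protein of motile cells, read 167 and 18.1 in VA-ES-BJ, 5441 and 5967 in SK-LMS-1 and 33229 and 34565 in A-204 (-6.29, adjusted p = 0.0209), with 1 VA-ES-BJ value above the floor. The cadherin gene CDH11 read 29.2 and 20.2 in VA-ES-BJ, 1201 and 1422 in SK-LMS-1 and 2180.5 and 1952 in A-204 (-5.19, adjusted p = 0.00264). PDGFRA, S100A4 and CDH11 thus had the same order, lowest in VA-ES-BJ without overlap.

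FN1, fibronectin, was dim in VA-ES-BJ at 15.5 and 28.2 in VA-ES-BJ, 32400 and 32191 in SK-LMS-1 and 606 and 409 in A-204 (-3.95, adjusted p = 0.00810), and differed most from SK-LMS-1. FAP, a serine protease of activated fibroblasts, read 16.7 and 7.77 in VA-ES-BJ, 605 and 566 in SK-LMS-1 and 122 and 206 in A-204 (-2.85, adjusted p = 0.0182). FOXC2, a forkhead factor, read 74.4 and 64.8 in VA-ES-BJ, 1412 and 1066 in SK-LMS-1 and 409.6 and 538 in A-204 (-2.57, adjusted p = 0.0107). FAP was near the floor in A-204 too, so that its difference from that line rests on dim values. S100A4 lost its call without either array of A-204 or either array of SK-LMS-1 (adjusted p of up to 0.0913). FN1 and FOXC2 lost their calls without either array of VA-ES-BJ (adjusted p of up to 0.104). FAP lost its call without either array of VA-ES-BJ or either array of SK-LMS-1 (adjusted p of up to 0.108). S100A4 was not called with no filter either (-6.29, adjusted p = 0.0558). FAP was not called with a constant of 50 or no filter either (-2.85 to -1.76, adjusted p of up to 0.0515).

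**Figure D3:**
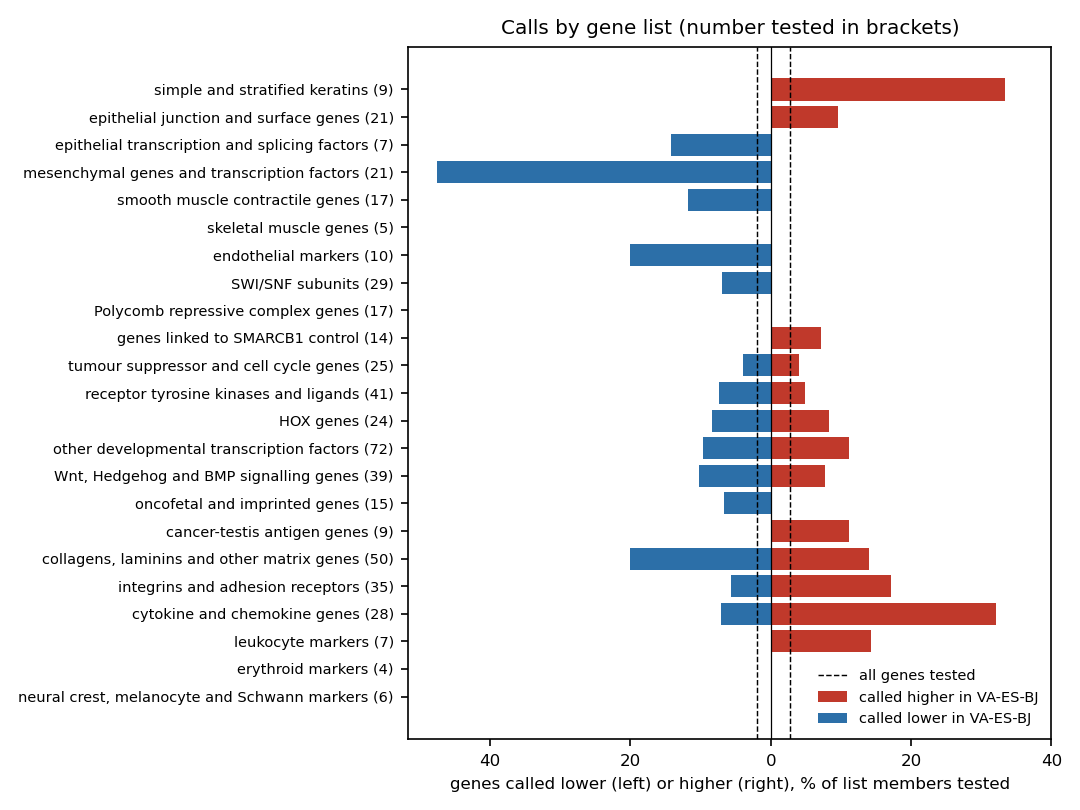
Share of tested genes called lower (blue, to the left) and higher (red, to the right) in VA-ES-BJ for each of the 23 gene lists, as a percent of the list members tested, whose number stands in brackets. Dashed lines mark the shares over all genes tested, 1.90% lower and 2.78% higher. The mesenchymal list reaches 47.6% to the left, and the keratin list 33.3% and the cytokine list 32.1% to the right.

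Smooth muscle genes did not move as one. Of 17 tested, 0 were called higher and 2 lower, TPM2 and MYLK, with a median difference of -0.22. TPM2, the beta tropomyosin, had a signal of 230.5 and 198 in VA-ES-BJ, 24002 and 23874 in SK-LMS-1 and 17314 and 17051 in A-204 (-6.25, adjusted p = 0.00195). MYLK, the myosin light chain kinase, read 97.6 and 141 in VA-ES-BJ, 7960.5 and 8166 in SK-LMS-1 and 1256 and 1022 in A-204 (-3.15, adjusted p = 0.00735). TPM1, the sister gene of TPM2, went the other way, with 31254 and 43413 in VA-ES-BJ, 12624 and 11582 in SK-LMS-1 and 3228 and 2786 in A-204, and was not called (1.61, adjusted p = 0.0233). TAGLN, the actin-binding protein SM22, lay between the lines, at 4245 and 4119.9 in VA-ES-BJ, 9763 and 10220 in SK-LMS-1 and 271 and 239 in A-204, and CNN1, calponin, did so at 162 and 114 in VA-ES-BJ, 661 and 732 in SK-LMS-1 and 17.7 and 21.02 in A-204. ITGA8, an integrin chain of smooth muscle, was above the floor in VA-ES-BJ alone, with 234 and 296 in VA-ES-BJ, 103 and 11.5 in SK-LMS-1 and 58.2 and 61.8 in A-204, and was not called (adjusted p = 0.199). PPP1R14A, which inhibits the phosphatase of smooth muscle myosin and is not on the list, was called higher, with 8075 and 8367 in VA-ES-BJ, 19.9 and 34.7 in SK-LMS-1 and 11.8 and 4.21 in A-204 (7.74, adjusted p = 0.00298). MYLK lost its call without either array of VA-ES-BJ (adjusted p of up to 0.0516). PPP1R14A lost its call without the TRAIL array of VA-ES-BJ (adjusted p of up to 0.0547).

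Skeletal muscle genes gave no call. Of 5 tested, 0 were called in either direction, with a median difference of 0.02. TNNT1, the slow skeletal troponin T, was the bright member and lay between the lines, with 4133 and 4617 in VA-ES-BJ, 1787 and 1787 in SK-LMS-1 and 5677 and 5882 in A-204. DES, the muscle intermediate filament, is counted with the smooth muscle genes and read 145 and 109.9 in VA-ES-BJ, 127 and 176 in SK-LMS-1 and 132 and 201 in A-204. ACTC1, the cardiac actin, read 344 and 384 in VA-ES-BJ, 351 and 363 in SK-LMS-1 and 349 and 326 in A-204, and the values of the lines overlapped for both. CDH15, MEF2C and PAX3 were tested with it and were not called either, at differences of 0.04, 0.15 and -0.91. MYOD1 and MYOG were dim on all 6 arrays, at no more than 89.8 and 31.8, those of A-204 included, although its label is rhabdomyosarcoma.

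Endothelial markers, which some epithelioid sarcomas carry, gave no call on the higher side. Of 10 tested, 0 were called higher and 2 lower, FLI1 and PDPN, with a median difference of -0.35, and 5 were dim on both VA-ES-BJ arrays. ENG, endoglin, was bright in VA-ES-BJ and SK-LMS-1, with 2939 and 2963 in VA-ES-BJ, 2491 and 2269.6 in SK-LMS-1 and 91.8 and 55.7 in A-204 (0.31, adjusted p = 0.446), and EGFL7, a secreted endothelial protein, lay between the lines, with 895 and 543 in VA-ES-BJ, 119 and 33.01 in SK-LMS-1 and 1529 and 1622 in A-204. CD34, a surface sialomucin of vessels and progenitors, read 115 and 119 in VA-ES-BJ, 138 and 207 in SK-LMS-1 and 178 and 198 in A-204 and was not called. ERG, an ETS factor of endothelium, was bright in A-204 alone, with 34.1 and 45.6 in VA-ES-BJ, 12.5 and 6.28 in SK-LMS-1 and 1333 and 1266 in A-204. FLI1, its close relative, read 26.8 and 32.8 in VA-ES-BJ, 614 and 461 in SK-LMS-1 and 333 and 211 in A-204 (-2.74, adjusted p = 0.0107). PDPN, podoplanin of lymphatic endothelium, read 40.1 and 6.92 in VA-ES-BJ, 158 and 205 in SK-LMS-1 and 866 and 854 in A-204 (-2.62, adjusted p = 0.0480). PECAM1 read 175 and 210.4 in VA-ES-BJ, 389 and 276 in SK-LMS-1 and 286 and 248 in A-204 and was not called, and CDH5 and VWF were dim on all 6 arrays. MUC16, the CA125 mucin, did not exceed 16.7 on any of the 6 arrays. FLI1 lost its call without the untreated array of VA-ES-BJ or the untreated array of A-204 (adjusted p of up to 0.0579). PDPN lost its call without the TRAIL array of VA-ES-BJ or either array of A-204 or either array of SK-LMS-1 (adjusted p of up to 0.169). FLI1 was not called with a constant of 50 either (-1.99, adjusted p = 0.00592). PDPN was not called with no constant, a constant of 50, no filter, quantile normalisation or the mean of probe sets either (-3.43 to -1.68, adjusted p of up to 0.109).

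Markers of other cells did not set VA-ES-BJ apart, apart from 1 gene. Of 7 leukocyte genes tested, 1 was called higher. It was ITGAM, the CD11b integrin chain of myeloid cells, with 341 and 390.1 in VA-ES-BJ, 39.1 and 17.6 in SK-LMS-1 and 9.97 and 40.05 in A-204 (3.28, adjusted p = 0.0339). The pan-leukocyte gene PTPRC and the monocyte gene CD14 were dim on all 6 arrays, and the differences of CD2, CSF1R and LCP1 were 0.14, -0.05 and 0.10 without a call. Of 4 erythroid genes tested (HBB, AHSP, EPOR and SLC4A1) and 6 neural crest, melanocyte and Schwann genes, 0 were called. Among the latter MITF, the melanocyte factor, was highest in VA-ES-BJ with 4339 and 3775 in VA-ES-BJ, 1596 and 1501 in SK-LMS-1 and 96.8 and 89.1 in A-204, at 1.38, adjusted p = 0.00802, under 4-fold. ERBB3 and TUBB3 of that list differed by 0.08 and -0.01, and SOX10, MLANA and S100B were dim on all 6 arrays. ITGAM lost its call without either array of VA-ES-BJ or the untreated array of A-204 or the TRAIL array of SK-LMS-1 (adjusted p of up to 0.192). ITGAM was not called with no constant or no filter either (3.28 to 3.80, adjusted p of up to 0.0821).

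Developmental transcription factors changed in both directions. Of 72 tested, 8 were called higher (11.1%, against 2.78% of all genes tested) and 7 lower (9.72%, against 1.90%). The median difference was -0.42. On both VA-ES-BJ arrays 31 of the 72 were dim. The GATA factors, zinc finger proteins of mesoderm and endoderm, were divided. GATA6 had a signal of 5.93 and 6.52 in VA-ES-BJ, 1429 and 1208 in SK-LMS-1 and 1136 and 1043 in A-204. It was dim on both VA-ES-BJ arrays and above 1000 on the 4 others, with differences of -5.93 ± 0.12 against A-204 and -6.20 ± 0.12 against SK-LMS-1 (adjusted p = 0.00195). GATA4 was the reverse, with 1276 and 1364 in VA-ES-BJ, 28.1 and 15.03 in SK-LMS-1 and 263 and 208 in A-204 (2.44, adjusted p = 0.00914). GATA5 read 743 and 493 in VA-ES-BJ, 17.6 and 24.2 in SK-LMS-1 and 17.5 and 3.54 in A-204 (4.25, adjusted p = 0.00877) and was above the floor in VA-ES-BJ alone. GATA3, listed with the epithelial factors, was lowest in VA-ES-BJ with 108 and 165 in VA-ES-BJ, 379 and 366 in SK-LMS-1 and 305 and 332 in A-204 (-1.18, adjusted p = 0.0323), under 4-fold. GATA4 lost its call without the TRAIL array of VA-ES-BJ or either array of A-204 (adjusted p of up to 0.0656). GATA5 lost its call without either array of VA-ES-BJ (adjusted p of up to 0.0929). GATA4 was not called with the mean of probe sets either (1.96, adjusted p = 0.0203).

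Paired box factors of kidney, eye and nervous system were among the genes called higher. PAX8, a factor of thyroid and kidney, read 6225 and 6436 in VA-ES-BJ, 1491 and 1187 in SK-LMS-1 and 1318 and 1190.4 in A-204 (2.24, adjusted p = 0.00562), and 6 of its 7 other probe sets differed by 4-fold the same way. PAX2, its relative in kidney, read 1533 and 1478 in VA-ES-BJ, 142 and 47.8 in SK-LMS-1 and 263 and 263 in A-204 (2.47, adjusted p = 0.0352). PAX6, the eye factor, read 3183 and 3179.6 in VA-ES-BJ, 429.7 and 406 in SK-LMS-1 and 502 and 515 in A-204 (2.62, adjusted p = 0.00300). In all 3 the VA-ES-BJ arrays lay above the 4 others without overlap. SOX4, a factor of progenitor cells, was bright and stood apart in the same way, with 16392 and 19968 in VA-ES-BJ, 1530.5 and 1559.9 in SK-LMS-1 and 954 and 1025 in A-204 (3.54, adjusted p = 0.00260). ISL1, a LIM homeobox factor of motor neurons and heart, read 845 and 961 in VA-ES-BJ, 46.6 and 76.9 in SK-LMS-1 and 62.8 and 11.9 in A-204 (3.67, adjusted p = 0.0373). SALL1, a kidney factor, read 162 and 177 in VA-ES-BJ, 25.9 and 34.5 in SK-LMS-1 and 18.99 and 5.32 in A-204, was close to the floor, and missed the threshold with an intensity trend in the model (adjusted p = 0.0525). PAX8 and PAX6 lost their calls without the TRAIL array of VA-ES-BJ (adjusted p of up to 0.0586). PAX2 lost its call without either array of VA-ES-BJ or either array of A-204 (adjusted p of up to 0.200). ISL1 and SALL1 lost their calls without either array of VA-ES-BJ or either array of SK-LMS-1 (adjusted p of up to 0.215). PAX2 was not called with no constant or no filter either (2.47 to 2.52, adjusted p of up to 0.0848). ISL1 was not called with no constant or no filter either (3.67 to 3.91, adjusted p of up to 0.0874). SALL1 was not called with no constant, a constant of 50, no filter or all 12 arrays either (1.31 to 2.50, adjusted p of up to 0.202).

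The factors called lower belonged to limb, heart and mesenchyme development in several cases. MEIS2, a cofactor of HOX proteins, read 448 and 524 in VA-ES-BJ, 9198 and 8496 in SK-LMS-1 and 7925 and 9025 in A-204 (-4.09, adjusted p = 0.00260). MSX1, a homeobox factor of limb and tooth, read 222 and 194 in VA-ES-BJ, 1759 and 1925 in SK-LMS-1 and 1956 and 2176 in A-204 (-3.08, adjusted p = 0.00356). SIX2, a factor of nephron progenitors, read 147 and 96.1 in VA-ES-BJ, 2149 and 2064 in SK-LMS-1 and 1395 and 1152 in A-204 (-3.29, adjusted p = 0.00411). In each of them the arrays of VA-ES-BJ were the lowest of the 6. SIX4 differed from the nearer line by -2.13, adjusted p = 0.00401. TBX18, a T-box factor of the epicardium, and SOX6, a factor of cartilage, were called at -2.15 and -2.14. Both were under the floor in 1 other line, and with a constant of 50 their differences were -1.28 and -1.26. SOX2, the stem cell factor, was bright in A-204 alone, with 40.1 and 7.89 in VA-ES-BJ, 24.9 and 48.6 in SK-LMS-1 and 1088 and 1088 in A-204. WT1, the Wilms tumour factor, was lowest in VA-ES-BJ with 569 and 442 in VA-ES-BJ, 1600.1 and 1364 in SK-LMS-1 and 2557 and 2399.7 in A-204, at -1.54, adjusted p = 0.00850, under 4-fold. SIX4 lost its call without the TRAIL array of VA-ES-BJ (adjusted p of up to 0.0547). TBX18 lost its call without either array of VA-ES-BJ or either array of A-204 (adjusted p of up to 0.105). SOX6 lost its call without the TRAIL array of VA-ES-BJ or either array of SK-LMS-1 (adjusted p of up to 0.0713). TBX18 was not called with quantile normalisation, the mean of probe sets or all 12 arrays either (-1.97 to -1.78, adjusted p of up to 0.0225). SOX6 was not called with the mean of probe sets or all 12 arrays either (-1.62 to -0.68, adjusted p of up to 0.0524).

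HOX genes, which set position along the body axis, showed small groups in each direction. Of 24 tested, 2 were called higher, HOXA2 and HOXB8, and 2 lower, HOXD10 and HOXD13, with a median difference of -0.07. Each is 8.33% of the list, against 2.78% of all genes tested called higher and 1.90% called lower. HOXA2, of anterior position, read 614 and 389 in VA-ES-BJ, 133 and 64.3 in SK-LMS-1 and 93.4 and 128 in A-204 (2.04, adjusted p = 0.0438). HOXB8 read 431 and 395 in VA-ES-BJ, 75.3 and 32.6 in SK-LMS-1 and 97.3 and 87.8 in A-204 (2.03, adjusted p = 0.0229). Both were a few-fold above the other lines at a modest signal. HOXD10 read 67.1 and 9.69 in VA-ES-BJ, 959 and 989 in SK-LMS-1 and 313 and 291 in A-204 (-2.93, adjusted p = 0.0468). HOXD13, of the distal limb, read 77.6 and 23.5 in VA-ES-BJ, 461 and 368 in SK-LMS-1 and 427 and 279 in A-204 (-2.67, adjusted p = 0.0154). None of the 4 exceeded 1000 on any array. HOXA2 lost its call without either array of VA-ES-BJ or the untreated array of A-204 or either array of SK-LMS-1 (adjusted p of up to 0.226). HOXB8 lost its call without either array of VA-ES-BJ or either array of A-204 (adjusted p of up to 0.150). HOXD10 lost its call without the TRAIL array of VA-ES-BJ or either array of A-204 or either array of SK-LMS-1 (adjusted p of up to 0.206). HOXD13 lost its call without the TRAIL array of VA-ES-BJ or either array of A-204 or the TRAIL array of SK-LMS-1 (adjusted p of up to 0.0941). HOXA2 was not called with no constant, a constant of 50, no filter or all 12 arrays either (1.75 to 2.16, adjusted p of up to 0.102). HOXB8 was not called with a constant of 50, no filter or all 12 arrays either (1.67 to 2.03, adjusted p of up to 0.0618). HOXD10 was not called with no constant, no filter, quantile normalisation or the mean of probe sets either (-3.57 to -1.17, adjusted p of up to 0.107). HOXD13 was not called with all 12 arrays either (-1.49, adjusted p = 0.0576).

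Signalling ligands and inhibitors of the Wnt, Hedgehog and BMP families showed clear single genes. Of 39 tested, 3 were called higher (7.69%, against 2.78% of all genes tested) and 4 lower (10.3%, against 1.90%). The median difference was -0.02. INHBA, the activin A subunit, had a signal of 20905 and 24948 in VA-ES-BJ, 953 and 1293 in SK-LMS-1 and 329.6 and 289 in A-204 (4.35, adjusted p = 0.00345). FST, follistatin, which binds and blocks activin, was the reverse, with 282 and 162 in VA-ES-BJ, 15418 and 15974 in SK-LMS-1 and 3753 and 4126 in A-204 (-4.13, adjusted p = 0.00644). Activin subunit and inhibitor thus stood at opposite ends in VA-ES-BJ, without overlap of the lines. BMP5, a bone morphogenetic protein, read 2431 and 2263 in VA-ES-BJ, 132 and 130.1 in SK-LMS-1 and 120.5 and 95.6 in A-204 (4.04, adjusted p = 0.00235). BMPR1B, a receptor for such ligands, was called higher too, at 3.14. BMP2, another ligand of the family, was called lower, at -3.09, so that its members differed in direction. On the Wnt side DKK1, a secreted inhibitor, had a signal of 152 and 78.1 in VA-ES-BJ, 30295 and 28888 in SK-LMS-1 and 8531 and 9062 in A-204 (-6.18, adjusted p = 0.00358). LEF1, the nuclear factor and target of the pathway, read 17.7 and 8.75 in VA-ES-BJ, 1249.5 and 1379.8 in SK-LMS-1 and 850.4 and 734 in A-204 (-5.03, adjusted p = 0.00298). Inhibitor and target gene were both lowest in VA-ES-BJ. INHBA lost its call without either array of VA-ES-BJ (adjusted p of up to 0.0571). BMPR1B lost its call without either array of VA-ES-BJ or the untreated array of SK-LMS-1 (adjusted p of up to 0.134). BMP2 lost its call without the TRAIL array of VA-ES-BJ or either array of A-204 or either array of SK-LMS-1 (adjusted p of up to 0.0667).

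Of 41 receptor tyrosine kinase genes and ligands tested, 2 were called higher (4.88%, against 2.78% of all genes tested) and 3 lower (7.32%, against 1.90%). The median difference was 0.35. EREG, epiregulin, a ligand of the EGF receptor, had a signal of 26535 and 33304 in VA-ES-BJ, 97.4 and 71.6 in SK-LMS-1 and 946 and 924 in A-204 (4.97, adjusted p = 0.00325). Its receptor gene EGFR lay between the lines, at 4156 and 4171 in VA-ES-BJ, 9162 and 9576 in SK-LMS-1 and 1724 and 1363 in A-204. EPHA4, an ephrin receptor, read 2330 and 1894 in VA-ES-BJ, 204.3 and 263 in SK-LMS-1 and 192 and 185 in A-204 (3.12, adjusted p = 0.00570), and its 3 other probe sets differed by 4-fold the same way. On the lower side PDGFRA was joined by DDR2, a collagen receptor of mesenchymal cells, with 236 and 199 in VA-ES-BJ, 5294 and 6459 in SK-LMS-1 and 6339 and 5148 in A-204 (-4.65, adjusted p = 0.00316). KITLG, the ligand of KIT, read 99.1 and 78.9 in VA-ES-BJ, 3819 and 3873 in SK-LMS-1 and 1528 and 1515 in A-204 (-3.93, adjusted p = 0.00260). MET, the hepatocyte growth factor receptor, was brightest in VA-ES-BJ, with 24960 and 37227 in VA-ES-BJ, 16851 and 17378 in SK-LMS-1 and 5738 and 5435 in A-204, and was not called (adjusted p = 0.0803). EPHA4 lost its call without either array of VA-ES-BJ (adjusted p of up to 0.0557). DDR2 lost its call without the TRAIL array of VA-ES-BJ (adjusted p of up to 0.0547).

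Cytokine and chemokine genes held the largest share called higher after the keratins. Of 28 tested, 9 were called higher (32.1%, against 2.78% of all genes tested) and 2 lower, with a median difference of 0.70, and 2 of the 28 passed the filter through VA-ES-BJ alone. The 9 include 5 chemokines of the CXC family, which attract neutrophils. CCL20, a chemokine for cells with CCR6, had a signal of 22718 and 32374 in VA-ES-BJ, 5.51 and 5.54 in SK-LMS-1 and 5.48 and 9.57 in A-204. Its geometric mean in VA-ES-BJ was 199 times the floor, and it was under 10 on all 4 other arrays, with differences of 10.47 ± 0.17 against A-204 and 10.62 ± 0.17 against SK-LMS-1 (adjusted p = 0.00195). CXCL5 read 34124 and 44692 in VA-ES-BJ, 45.3 and 42.2 in SK-LMS-1 and 10.5 and 22.4 in A-204 (9.46, adjusted p = 0.00195). Neither overlapped with another line. CXCL2 read 5756 and 6763 in VA-ES-BJ, 457 and 488 in SK-LMS-1 and 195 and 219.9 in A-204 (3.69, adjusted p = 0.00235). CXCL1 read 9396 and 10826 in VA-ES-BJ, 1541 and 1436 in SK-LMS-1 and 1364 and 1747 in A-204 (2.70, adjusted p = 0.00502). These 4 chemokines were highest on both VA-ES-BJ arrays, and CCL20 and CXCL5 were dim elsewhere.

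CXCL3 and CXCL6 had smaller differences from SK-LMS-1. CXCL3 read 2171 and 2513 in VA-ES-BJ, 513 and 599.9 in SK-LMS-1 and 77.7 and 162 in A-204 (2.05, adjusted p = 0.0179), and CXCL6 1832 and 1898 in VA-ES-BJ, 334 and 322 in SK-LMS-1 and 6.29 and 20.4 in A-204 (2.46, adjusted p = 0.0154). With all 12 arrays in the model the CXCL3 difference was 0.71 and it was not called. CXCL8, interleukin-8, was not part of the pattern: it was lowest in VA-ES-BJ, at 747 and 644 in VA-ES-BJ, 1916 and 1813 in SK-LMS-1 and 1015 and 1674 in A-204, and was not called. CCL2, a monocyte chemokine, read 404 and 458 in VA-ES-BJ, 199 and 195 in SK-LMS-1 and 27.4 and 95.4 in A-204 and was not called (adjusted p = 0.202). Outside the chemokines, IL32, an inflammatory cytokine, read 9180.1 and 9592 in VA-ES-BJ, 29.2 and 38.1 in SK-LMS-1 and 287 and 406 in A-204 (4.73, adjusted p = 0.00235). IL18, an interferon gamma inducing cytokine, read 3063 and 2865 in VA-ES-BJ, 11.6 and 5.53 in SK-LMS-1 and 483 and 419.5 in A-204 (2.69, adjusted p = 0.00411). GDF15, a stress-induced member of the TGF-beta family, read 16987 and 18182 in VA-ES-BJ, 127 and 122 in SK-LMS-1 and 809 and 673 in A-204 (4.55, adjusted p = 0.00235). All 3 were highest in VA-ES-BJ without overlap. The 2 genes called lower were STC1, the hormone stanniocalcin-1, with 228 and 242 in VA-ES-BJ, 2452 and 4979.5 in SK-LMS-1 and 6212 and 7274 in A-204 (-3.83, adjusted p = 0.00746), and IL33, an alarmin, with 5.42 and 4.53 in VA-ES-BJ, 124 and 94.4 in SK-LMS-1 and 336 and 347 in A-204 (-2.84, adjusted p = 0.00417). IL33 was near the floor in SK-LMS-1 as well. CXCL1, STC1 and IL33 lost their calls without either array of VA-ES-BJ (adjusted p of up to 0.0783). CXCL3 and CXCL6 lost their calls without either array of VA-ES-BJ or either array of SK-LMS-1 (adjusted p of up to 0.123). IL18 lost its call without the TRAIL array of VA-ES-BJ (adjusted p of up to 0.0547). CXCL3 was not called with a constant of 50, no filter or quantile normalisation either (1.94 to 2.05, adjusted p of up to 0.0522). CXCL6 was not called with no constant either (2.51, adjusted p = 0.0697). IL33 was not called with a constant of 50 either (-1.53, adjusted p = 0.00410).

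NF-kappaB is the transcription factor through which inflammatory signals reach many chemokine genes, and its DNA motif, the kappaB motif, was looked for in the promoters after the called genes had been seen. The window is the 250 bases before the start of a gene in the RefSeq promoter table (GRCh38.p14), both strands were read, and overlapping matches count as 1 stretch. The letters searched were GGGRNNYYCC, where R is A or G, Y is C or T and N is any base. Forms of the motif that depart from these letters were not counted. The motif stood in 9.57% of all 27305 promoters and in 11.8% of the 11210 of genes tested. It stood in 42 of 298 promoters of genes called higher (14.1%). Among cytokine genes with an entry it stood in 8 of 8 of those called higher and in 1 of 10 of the others tested. The remaining cytokine genes tested had no entry. This split was drawn after the calls had been seen, and the difference was not tested. A match is a description of the letters and not evidence that the factor binds there. CXCL1, CXCL2, CXCL3, CXCL5 and CXCL6 are related genes on chromosome 4 whose promoters hold the same matched letters. The 8 promoters are thus not 8 separate findings, and whether NF-kappaB acts on these genes was not tested. The promoters of CCL20 (chr2:227813592-227813841 on the plus strand), CXCL2 (chr4:74099196-74099445 on the minus strand), CXCL5 (chr4:73998678-73998927 on the minus strand), IL32 (chr16:3065153-3065402 on the plus strand) and GDF15 (chr19:18385908-18386157 on the plus strand) show where the matches lie among the genes described above. Sequences are 5′ to 3′ on the strand of the gene, with the matched letters in capitals:
CCL20: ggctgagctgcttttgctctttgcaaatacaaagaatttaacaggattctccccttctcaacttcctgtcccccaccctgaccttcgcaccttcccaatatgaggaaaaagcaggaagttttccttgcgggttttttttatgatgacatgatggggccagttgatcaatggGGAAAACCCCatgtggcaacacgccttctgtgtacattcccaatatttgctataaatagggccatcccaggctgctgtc
CXCL2: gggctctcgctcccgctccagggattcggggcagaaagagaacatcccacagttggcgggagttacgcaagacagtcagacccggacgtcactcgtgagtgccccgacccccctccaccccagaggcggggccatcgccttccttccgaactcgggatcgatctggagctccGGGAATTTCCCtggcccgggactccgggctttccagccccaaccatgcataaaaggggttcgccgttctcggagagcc
CXCL5: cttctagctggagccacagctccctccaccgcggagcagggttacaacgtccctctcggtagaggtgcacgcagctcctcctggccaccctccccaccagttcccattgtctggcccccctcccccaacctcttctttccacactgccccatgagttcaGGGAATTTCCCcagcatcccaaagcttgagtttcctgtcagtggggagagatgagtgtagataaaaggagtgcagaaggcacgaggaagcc
IL32: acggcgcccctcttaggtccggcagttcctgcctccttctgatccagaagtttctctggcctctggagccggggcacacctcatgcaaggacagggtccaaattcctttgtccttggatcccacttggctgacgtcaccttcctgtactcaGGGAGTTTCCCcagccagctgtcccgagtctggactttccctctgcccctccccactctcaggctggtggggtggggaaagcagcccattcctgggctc
GDF15: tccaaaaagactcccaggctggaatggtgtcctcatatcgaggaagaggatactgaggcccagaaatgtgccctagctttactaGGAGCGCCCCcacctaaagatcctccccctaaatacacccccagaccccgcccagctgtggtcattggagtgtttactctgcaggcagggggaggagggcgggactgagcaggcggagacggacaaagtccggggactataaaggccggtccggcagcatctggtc
The first matched base lay 79 bases before the start in CCL20, 78 in CXCL2, 91 in CXCL5, 99 in IL32 and 166 in GDF15. CXCL1, CXCL3 and CXCL6 had theirs 79, 79 and 90 bases before the start. The GDF15 match stood farthest from the start of these 8.

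Adhesion receptors included a pair that inflammatory signals are known to induce. Of 35 integrin and adhesion genes tested, 6 were called higher (17.1%, against 2.78% of all genes tested) and 2 lower (5.71%, against 1.90%). The median difference was 0.60, and 5 of the 35 passed the filter through VA-ES-BJ alone. VCAM1, a ligand for integrin-bearing leukocytes, had a signal of 12105 and 15078 in VA-ES-BJ, 206 and 61.3 in SK-LMS-1 and 34.5 and 88.6 in A-204 (6.74, adjusted p = 0.0148). ICAM1, its counterpart for other leukocyte integrins, read 8982 and 7061 in VA-ES-BJ, 57.8 and 43.7 in SK-LMS-1 and 163 and 206 in A-204 (5.35, adjusted p = 0.00307). Both were bright in VA-ES-BJ and near or under the floor in the other lines. The VCAM1 promoter held the kappaB motif 62 bases before the start. The ICAM1 window held no match to the letters searched. It does hold the similar stretch ttggaaattccgg, which those letters cannot match, so that the miss does not show that ICAM1 lacks a kappaB site.

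Cell adhesion molecules of the nervous system were also called higher. L1CAM had a signal of 20058 and 18517 in VA-ES-BJ, 119 and 12.8 in SK-LMS-1 and 757 and 601 in A-204 (4.81, adjusted p = 0.0239). NRCAM, its relative, read 3935 and 4276 in VA-ES-BJ, 65.8 and 21.5 in SK-LMS-1 and 98.8 and 32.1 in A-204 (5.88, adjusted p = 0.00746). CDH10, a cadherin of brain, read 1257 and 1274 in VA-ES-BJ, 95.3 and 80.8 in SK-LMS-1 and 70.5 and 70.6 in A-204 (3.68, adjusted p = 0.00260). In these the arrays of A-204 and SK-LMS-1 did not reach those of VA-ES-BJ. MCAM, a surface molecule of endothelium and melanoma, read 13521 and 13532 in VA-ES-BJ, 3613 and 2762 in SK-LMS-1 and 164 and 171 in A-204 (2.09, adjusted p = 0.00806), but with the mean of its probe sets the difference was 0.82 and it was not called. ITGA4, the integrin chain that binds VCAM1, was lower, with 28.1 and 67.6 in VA-ES-BJ, 3438 and 3569 in SK-LMS-1 and 778 and 756 in A-204 (-3.79, adjusted p = 0.00905). ITGA6, a laminin receptor chain, read 1943 and 1584 in VA-ES-BJ, 17548 and 14824 in SK-LMS-1 and 10248 and 9326 in A-204 (-2.47, adjusted p = 0.00345). VCAM1 lost its call without either array of VA-ES-BJ or the untreated array of A-204 (adjusted p of up to 0.126). ICAM1 and ITGA6 lost their calls without the TRAIL array of VA-ES-BJ (adjusted p of up to 0.0518). L1CAM lost its call without either array of VA-ES-BJ or either array of A-204 (adjusted p of up to 0.152). MCAM lost its call without either array of VA-ES-BJ or the TRAIL array of SK-LMS-1 (adjusted p of up to 0.0872). ITGA4 lost its call without the untreated array of A-204 (adjusted p of up to 0.0534). L1CAM was not called with no constant or no filter either (4.81 to 4.84, adjusted p of up to 0.0623).

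Matrix genes changed in both directions. Of 50 tested, 7 were called higher (14%, against 2.78% of all genes tested) and 10 lower (20%, against 1.90%). The median difference was -0.30. SPP1, osteopontin, had a signal of 43857 and 68219 in VA-ES-BJ, 89.5 and 42.6 in SK-LMS-1 and 43.9 and 34.4 in A-204 (9.53, adjusted p = 0.00332). THBS2, thrombospondin-2, read 14557 and 16380 in VA-ES-BJ, 31.4 and 42.95 in SK-LMS-1 and 39.2 and 62.7 in A-204 (7.97, adjusted p = 0.00195). Both were dim on the 4 other arrays. THBS1 read 9528 and 7422 in VA-ES-BJ, 223 and 261 in SK-LMS-1 and 1644 and 1596 in A-204 (2.37, adjusted p = 0.00799). VCAN, the proteoglycan versican, read 18228 and 26002 in VA-ES-BJ, 3226 and 3849 in SK-LMS-1 and 748 and 649 in A-204 (2.62, adjusted p = 0.00883). These proteins are bound by other matrix and surface molecules rather than forming fibrils. Among collagens COL8A1, of the short-chain network type, read 10135 and 11391 in VA-ES-BJ, 295 and 225 in SK-LMS-1 and 21.3 and 5.50 in A-204 (5.32, adjusted p = 0.00486). COL4A1, of basement membranes, read 8271 and 10125 in VA-ES-BJ, 1582 and 1548 in SK-LMS-1 and 953 and 685 in A-204 (2.54, adjusted p = 0.0101). COL18A1, the source of endostatin, was called at 2.14. THBS1 lost its call without either array of VA-ES-BJ or either array of A-204 (adjusted p of up to 0.0604). VCAN and COL4A1 lost their calls without either array of VA-ES-BJ or either array of SK-LMS-1 (adjusted p of up to 0.0780). COL8A1 lost its call without the TRAIL array of VA-ES-BJ (adjusted p of up to 0.0516). COL18A1 lost its call without either array of VA-ES-BJ or the untreated array of A-204 (adjusted p of up to 0.0959). COL18A1 was not called with the mean of probe sets either (1.66, adjusted p = 0.0275).

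The matrix genes called lower included some of fibrils and of fibroblast matrix, but other fibril collagen genes were not called. TNC, tenascin-C, had a signal of 56.8 and 11.3 in VA-ES-BJ, 8263 and 7499.9 in SK-LMS-1 and 21837 and 22370 in A-204 (-7.63, adjusted p = 0.00556). The fibrillin gene FBN2 read 46.96 and 34.02 in VA-ES-BJ, 4537 and 4939.7 in SK-LMS-1 and 3979 and 3099.8 in A-204 (-6.09, adjusted p = 0.00235), and FBN1 259 and 216 in VA-ES-BJ, 5069 and 5268 in SK-LMS-1 and 3180.5 and 2859.6 in A-204 (-3.61, adjusted p = 0.00264). COL5A1, which regulates collagen fibrils, read 11.99 and 52.4 in VA-ES-BJ, 481 and 434 in SK-LMS-1 and 2285 and 2012 in A-204 (-3.58, adjusted p = 0.0235). In all 4 the VA-ES-BJ arrays were lowest, and those of FBN1 were above the floor. The collagen genes COL6A2 and COL12A1 were called too, at -2.59 and -2.81 from the nearer line. COL6A1 was lower without reaching 4-fold (-1.65), while COL6A3 was highest in VA-ES-BJ (0.42), and neither was called. Of other fibril collagen genes, COL1A2 and COL3A1 differed by -0.53 and -0.13 and were not called. COL1A1 and COL11A1 lay between the lines, and COL5A2 was above both other lines, under 4-fold (0.71). LAMB3, a laminin chain of epithelial basement membrane, read 4.26 and 50.4 in VA-ES-BJ, 4113 and 3507 in SK-LMS-1 and 1126 and 1031 in A-204 (-5.11, adjusted p = 0.0203). HAS2, the hyaluronan synthase, read 3.64 and 2.93 in VA-ES-BJ, 13423 and 11725 in SK-LMS-1 and 287 and 273 in A-204 (-4.28, adjusted p = 0.00232). MMP1, the interstitial collagenase, read 28.2 and 28.3 in VA-ES-BJ, 44419 and 44602 in SK-LMS-1 and 3614 and 3878 in A-204 (-6.55, adjusted p = 0.00195). FN1, given above, is the last of the 10. COL5A1 and LAMB3 lost their calls without either array of A-204 or either array of SK-LMS-1 (adjusted p of up to 0.105). COL6A2 lost its call without either array of VA-ES-BJ (adjusted p of up to 0.0607). COL12A1 lost its call without the TRAIL array of VA-ES-BJ (adjusted p of up to 0.0547). COL5A1 was not called with no filter either (-3.58, adjusted p = 0.0614). COL6A2 was not called with the mean of probe sets either (-1.63, adjusted p = 0.00913). LAMB3 was not called with no constant or no filter either (-6.20 to -5.11, adjusted p of up to 0.0547).

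Oncofetal and cancer-testis genes gave single calls. Of 15 oncofetal and imprinted genes tested, 0 were called higher and 1 lower. It was MEG3, an imprinted long non-coding RNA, with 7.91 and 8.71 in VA-ES-BJ, 946 and 859 in SK-LMS-1 and 637 and 524 in A-204 (-4.88, adjusted p = 0.00235), which with the mean of its probe sets stood at -1.56 and was not called. HMGA2, a chromatin protein of embryonic mesenchyme, was brightest in VA-ES-BJ, with 27062 and 34641 in VA-ES-BJ, 8833 and 9440.3 in SK-LMS-1 and 8272 and 9139 in A-204, at 1.74, adjusted p = 0.00733, under 4-fold. PEG10, an imprinted gene, read 31965 and 47744 in VA-ES-BJ, 11957 and 13007 in SK-LMS-1 and 12687 and 10928 in A-204 (1.65, adjusted p = 0.0244), and PEG3 was bright in A-204 alone at 17.02 and 85.01 in VA-ES-BJ, 239.9 and 276 in SK-LMS-1 and 50861 and 50017 in A-204. Of 9 cancer-testis genes tested, 1 was called higher and 0 lower. It was PRAME, which encodes a tumour antigen, with 2654 and 2818 in VA-ES-BJ, 41.6 and 66.4 in SK-LMS-1 and 5.91 and 60.2 in A-204 (5.41, adjusted p = 0.0127), above the floor in VA-ES-BJ alone. MAGEA12, MAGEC2 and XAGE2 were lowest in VA-ES-BJ, at differences of -1.73, -1.70 and -1.16, and were not called. PRAME lost its call without either array of VA-ES-BJ or either array of SK-LMS-1 (adjusted p of up to 0.0934).

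The 15 genes with the largest differences in each direction reached beyond these lists. Among the highest, IAPP, the islet amyloid peptide, had a signal of 33368 and 50969 in VA-ES-BJ, 7.82 and 21.9 in SK-LMS-1 and 7.45 and 61.98 in A-204 (10.10, adjusted p = 0.00298). ALDH1A1, which makes retinoic acid, read 37211 and 56554 in VA-ES-BJ, 24.8 and 60.5 in SK-LMS-1 and 10.2 and 4.79 in A-204 (9.80, adjusted p = 0.00298). RGS5, a G protein regulator of pericytes, read 35760 and 52612 in VA-ES-BJ, 161 and 159.6 in SK-LMS-1 and 127 and 173 in A-204 (7.98, adjusted p = 0.00207). SCEL, sciellin, a precursor of the cornified envelope of skin, read 14802 and 16636 in VA-ES-BJ, 4.22 and 9.22 in SK-LMS-1 and 12.8 and 38.7 in A-204 (8.80, adjusted p = 0.00235). In these genes both VA-ES-BJ arrays lay above 10000 and the 4 others near or under the floor. The genes that follow were above the floor in VA-ES-BJ alone. FGB, the fibrinogen beta chain made in liver, read 12078 and 14905 in VA-ES-BJ, 47.8 and 52.3 in SK-LMS-1 and 40.4 and 29.2 in A-204 (7.76, adjusted p = 0.00232). KL, klotho, the co-receptor of a kidney hormone, read 7519 and 7203 in VA-ES-BJ, 28.8 and 23.8 in SK-LMS-1 and 5.06 and 33.6 in A-204 (7.60, adjusted p = 0.00570). FXYD6, a regulator of the sodium pump, read 6298 and 6423 in VA-ES-BJ, 19.4 and 7.27 in SK-LMS-1 and 16.98 and 16.5 in A-204 (7.80, adjusted p = 0.00235). PDZK1IP1, a small membrane protein, and FILIP1, which binds filamin, were dim in the other lines too, with differences of 7.79 and 7.63. ALDH1A1 lost its call without the TRAIL array of VA-ES-BJ (adjusted p of up to 0.0547). KL, PDZK1IP1 and FILIP1 lost their calls without either array of VA-ES-BJ (adjusted p of up to 0.0709).

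Among the lowest, EMP1, an epithelial membrane protein, had a signal of 28.1 and 33.7 in VA-ES-BJ, 13676 and 11423 in SK-LMS-1 and 9739.6 and 10294 in A-204 (-7.88, adjusted p = 0.00195). MIR100HG, the host transcript of a microRNA cluster, read 6.73 and 7.76 in VA-ES-BJ, 5330.1 and 4776 in SK-LMS-1 and 6181 and 6002 in A-204 (-8.06, adjusted p = 0.00195). GPC6, a glypican, read 18.2 and 25.1 in VA-ES-BJ, 2353 and 2215 in SK-LMS-1 and 12550 and 14357 in A-204 (-6.11, adjusted p = 0.00207). All 3 were dim on both VA-ES-BJ arrays and above 1000 on the 4 others. PDLIM4, an actin-associated LIM protein, read 16.9 and 74.96 in VA-ES-BJ, 4877 and 4584 in SK-LMS-1 and 3266 and 3353 in A-204 (-6.06, adjusted p = 0.00899). PDLIM4 lost its call without the untreated array of A-204 (adjusted p of up to 0.0550).

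**Figure D4:**
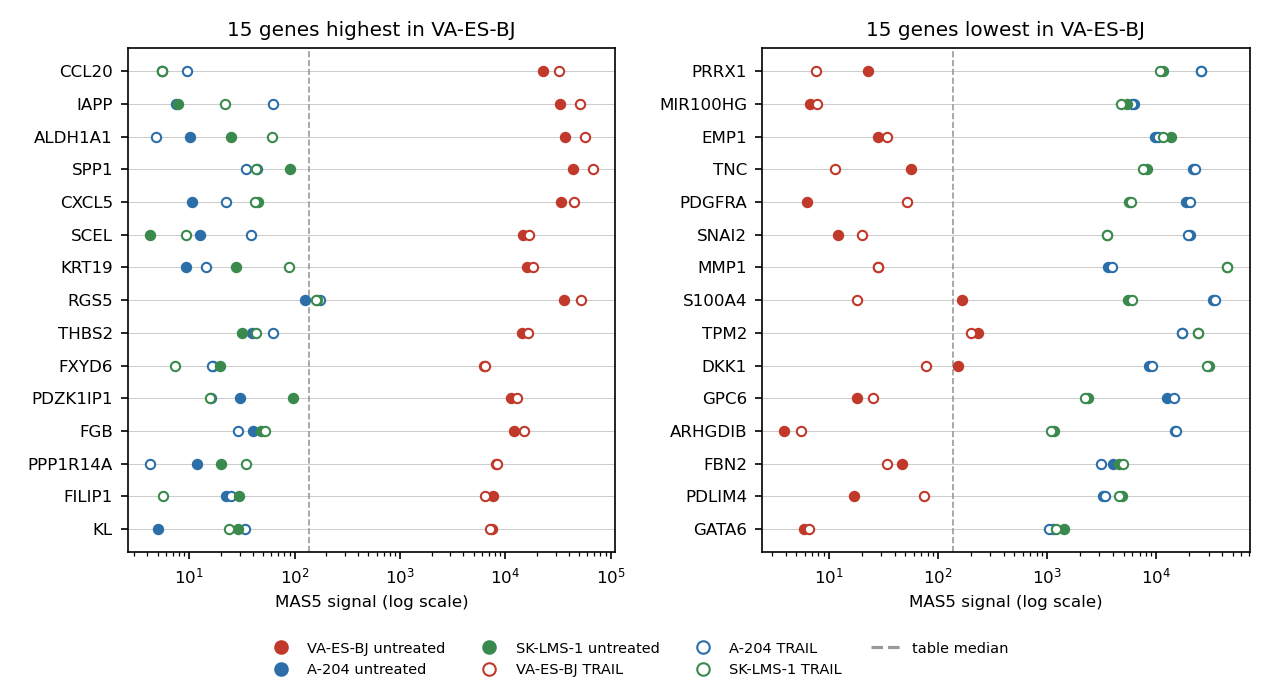
MAS5 signal (horizontal axis, log scale) on the 6 arrays for the 15 genes with the largest difference from the nearer line in each direction, with filled points for untreated and open points for TRAIL arrays and a dashed line at the floor of 136.5. The VA-ES-BJ arrays (red) stand apart from the arrays of A-204 (blue) and SK-LMS-1 (green) in every gene shown, which is how the genes were chosen.

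Some called genes lie next to each other in the gene order. Runs of 3 neighbouring genes called the same way were found in 7 places. On chromosome 4 the run was CXCL5, CXCL3 and CXCL2. On chromosome 12 it was SLCO1A2, IAPP and PYROXD1, where the transporter gene SLCO1A2 read 2738 and 2764 in VA-ES-BJ, 18.7 and 5.34 in SK-LMS-1 and 5.396 and 23.4 in A-204 and PYROXD1, an oxidoreductase, 10461 and 10799 in VA-ES-BJ, 1565 and 1514 in SK-LMS-1 and 833 and 869 in A-204. On chromosome 19 it was TNFSF9, CD70 and C3. CD70, the ligand of CD27 on lymphocytes, read 17654 and 20157 in VA-ES-BJ, 311 and 190.1 in SK-LMS-1 and 291 and 311 in A-204 (5.92, adjusted p = 0.00352). TNFSF9, the ligand of 4-1BB, read 13780 and 12757 in VA-ES-BJ, 56.9 and 73.1 in SK-LMS-1 and 512 and 472 in A-204 (4.72, adjusted p = 0.00260), and C3, the central complement component, 10451 and 11069 in VA-ES-BJ, 30.7 and 14.8 in SK-LMS-1 and 212 and 41.9 in A-204 (6.62, adjusted p = 0.00984). All 3 were bright on both VA-ES-BJ arrays and far lower elsewhere. CLDN1 had P3H2 and CLDN16 beside it on chromosome 3, with differences of 2.24 and 2.25. FIGN, GRB14 and COBLL1 formed the run on chromosome 2, with differences of 3.65, 5.03 and 3.10. The 1 run called lower was CHST2, DIPK2A and PLOD2 on chromosome 3, where PLOD2, a collagen lysyl hydroxylase, read 173 and 159 in VA-ES-BJ, 23688 and 22391 in SK-LMS-1 and 4321 and 4182 in A-204 (-4.58, adjusted p = 0.00195). The remaining run lies on chromosome 8 and is not described. SLCO1A2, C3 and CHST2 lost their calls without either array of VA-ES-BJ (adjusted p of up to 0.0891). CD70, COBLL1 and DIPK2A lost their calls without the TRAIL array of VA-ES-BJ (adjusted p of up to 0.0547). P3H2 lost its call without either array of VA-ES-BJ or the untreated array of A-204 (adjusted p of up to 0.0780). CLDN16 lost its call without either array of VA-ES-BJ or either array of SK-LMS-1 (adjusted p of up to 0.143). GRB14 lost its call without either array of VA-ES-BJ or the untreated array of SK-LMS-1 (adjusted p of up to 0.129). CLDN16 was not called with a constant of 50, no filter or all 12 arrays either (1.63 to 2.25, adjusted p of up to 0.0592). GRB14 was not called with no constant either (5.98, adjusted p = 0.0517).

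The same differences were read again on the 6 arrays with taurolidine, which had no part in choosing the genes but come from the same lines. On these arrays 354 genes were called higher in VA-ES-BJ (2.54% of those tested) and 230 lower (1.65%). Of the 387 genes called higher without taurolidine, 288 (74.4%) were called higher again, 316 kept at least 4-fold and 383 kept their sign. Of the 265 called lower, 182 (68.7%) were called lower again, 197 kept at least 4-fold and 260 kept their sign. The median difference from the nearer line was 3.05 for the former with taurolidine and -2.82 for the latter. KRT19, KRT8, CLDN1, CCL20, CXCL5, VCAM1, ICAM1, PAX8, SOX4, PRRX1, SNAI2, GATA6 and SMARCB1 were called again. MTAP, CXCL1, CXCL2, IL18 and CDKN1A were not. Nor were CXCL3, CXCL6, BCL11A, BMPR1B, FAP, CLDN16 and COL18A1, and neither list is complete. Of the 28 cytokine and chemokine genes tested, 4 were called higher with taurolidine, against 9 without. CXCL3 was below SK-LMS-1 on the arrays with taurolidine (-0.64).

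A test of whether a line difference changed with taurolidine, on all 12 arrays, was passed by 76 genes (0.546% of those tested), 7 of them among the genes called higher and 5 among those called lower. HMGA2 was one of the genes that passed without being called on the arrays without taurolidine. HMGA2 stayed at 28078 and 29046 on the VA-ES-BJ arrays with taurolidine and was between 1419.7 and 2230.4 in the other lines there, and it was called higher on those arrays.

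**Figure D5:**
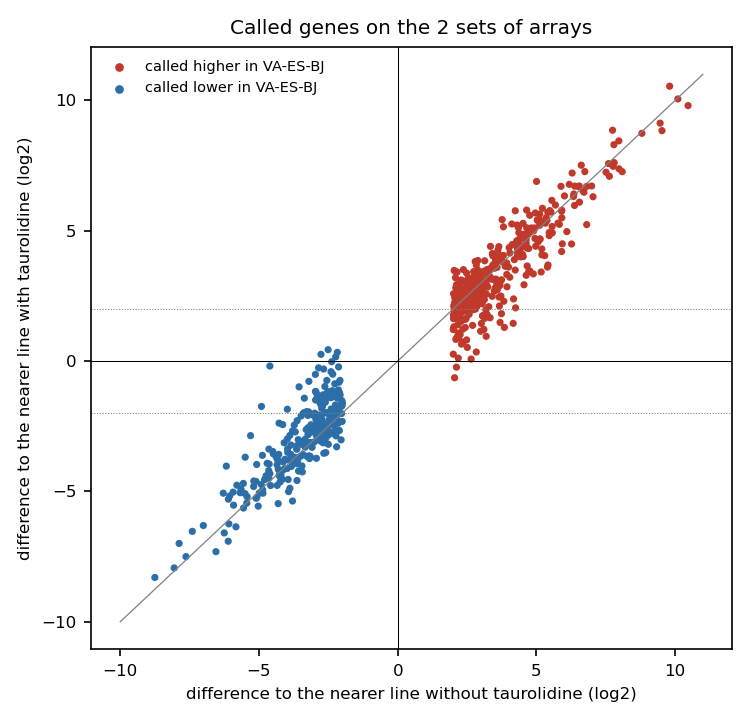
Difference of VA-ES-BJ from the nearer line on the log2(signal + 11.8) scale without taurolidine (horizontal axis) and with taurolidine (vertical axis), with 1 point for each gene called higher (red) or lower (blue) without taurolidine, dotted lines at 4-fold and a diagonal where both are equal. Of the red points 316 lie at 4-fold or more with taurolidine, and of the blue points 197 do.

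The untreated and the TRAIL array of VA-ES-BJ were not equal in brightness. Of the 13927 genes, 725 (5.21%) differed by at least 2-fold between them, against 947 (6.80%) in SK-LMS-1 and 600 (4.31%) in A-204, and 559 of the 725 were dim. Among genes above 10000 the TRAIL array of VA-ES-BJ was 1.21-fold brighter in the median, against 0.973 in SK-LMS-1 and 1.03 in A-204. SPP1, IAPP and CCL20, given above, are examples. With quantile normalisation, which gives all arrays the same distribution, 375 genes were called higher and 260 lower.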

How the data were processed

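The authors deposited MAS5 intensity values on a linear scale, 1 for each probe set and array, per the labels and the submitters' processing notes. For its scaling target, version and detection calls, no statement is given in the sources used here. The mean without the lowest and highest 2% was 999.8 to 999.9 on each array, so that total mRNA per cell is not visible. Of 54675 probe sets, 41097 named 1 gene, 1801 several and 11777 none, and 41043 took their current symbol through Entrez numbers. The 62 control probe sets were left out. The tested probe set with the highest mean stood for a gene, which mattered for 7038 genes. Linear models on log2(signal + 11.8), 11.8 being the table's 10th percentile, had line and agent (untreated or TRAIL) as terms, with limma 3.58.1 on R 4.3.3 (2 residual and 1.77 prior degrees of freedom). Untreated and TRAIL arrays are the only repeats of a line. On data drawn with 200 of 13927 genes changed, 75% of changes of 3 on the log2 scale were recovered, 0% of those of 1.5 were called, and 0.133% of calls were false (10 runs). In the drawn data each unchanged gene had the same mean in all 3 lines, unlike the real lines. The 0.133% is thus no error rate for the calls made here. Changes of 1.5 lie under the required difference of 2, so that few could be called. At most 0.0018% of values were equal between any 2 arrays. Members and the 23 lists (693 genes, 609 on the array, 485 tested) were chosen with earlier results of these data known. By rule the text names KRT19, ACTA2, SMARCB1, the 15 largest differences in each direction and up to 4 members of each list, 103 genes, of which 1 is not reported here, and 102 more were chosen after their values were seen. Listed genes that were not on the array are not analysed here. Alternatives changed the constant, filter, normalisation, probe set rule, model, thresholds and arrays.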

Additional observations from a re-analysis of the deposited data

Results flagged for a closer look

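The difference of VA-ES-BJ from the mean of both other lines changed with taurolidine, tested on all 12 arrays (limma interaction, Benjamini-Hochberg over all genes tested), for 6 of the genes named. For HAS2 it changed by 2.315 on the log2 scale (adjusted p = 0.0265), where taurolidine moved the gene by 0.51 in VA-ES-BJ, -2.22 in SK-LMS-1 and -1.38 in A-204. For HMGA2 it changed by 2.207 (adjusted p = 0.00481), with taurolidine changes of -0.10, -2.59 and -2.03 in the same order of lines. For SOCS1 it changed by -3.01 (adjusted p = 0.0124), with -1.92, 2.32 and -0.14. For NFKBIA it changed by -2.416 (adjusted p = 0.0229), with -1.62, 1.57 and 0.03. For FIGN it changed by -2.22 (adjusted p = 0.0265), with -1.741, -0.544 and 1.503. For TNFSF9 it changed by -1.528 (adjusted p = 0.0477), with 0.24, 2.01 and 1.53.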

How the results depend on the processing

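The count of genes called higher was 387 and of genes called lower 265. Required folds of 2 and 8 in place of 4 gave 782 and 210 genes higher and 652 and 142 lower, and a threshold of 0.01 gave 249 higher. Leaving out 1 array gave 91 to 340 genes higher and 129 to 216 lower. The lowest counts came without the TRAIL array of VA-ES-BJ, and 162 were higher without its untreated array. Of the 387 and 265 genes, 91 and 123 were called again without the TRAIL array. Under the other alternatives (constant, filter, normalisation, mean of probe sets, model, all 12 arrays, intensity trend) the counts were 300 to 426 higher and 201 to 287 lower. Calls repeated on the arrays with taurolidine numbered 470, and 444 to 533 under 3 alternatives, and 76 genes changed their line difference with taurolidine, against 110 with a constant of 50 and 106 with quantile normalisation. Of 125 named and called genes, 45 kept their call in every alternative that could be run for them and 48 without each array. With all 12 arrays SOCS1 stood at -0.12, the 1 gene whose direction turned, and the cause was not tested. Of 80 named genes not called, 24 were called in some alternative. No paired analysis was possible because the labels carry no replicate numbers to pair by. The agent term does match the untreated and the TRAIL arrays across lines, and without it 401 genes were called higher and 271 lower. Signals under the floor of 136.5 have no detection call, so that a difference between dim values cannot be told from background.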
